A study of Drosophila melanogaster with 4 samples.

Results

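The segment polarity genes described here are 10 Drosophila melanogaster genes of the Wingless, Hedgehog and Engrailed pathways: wg, hh, ptc, arm, pan, ci, en, inv, gsb and nkd. They were taken by name from a list of 10 symbols, and all 10 matched among the 13945 protein-coding genes annotated on the 6 chromosome arms. At each of them, binding of the protein CG1233 was read from chromatin immunoprecipitation with sequencing (ChIP-seq), in which DNA pulled down with a protein is sequenced to locate where it was bound. The 4 biological replicates formed 1 group: whole embryos of mixed sex, 0 to 24 h old, of 1 transgenic line that expresses CG1233 fused at its C terminus to the green fluorescent protein, GFP. No embryos without the transgene and no second condition were analysed here, so values are described and no groups were tested against each other. The labels disagree on the libraries: their description calls each sample an input control, but CG1233 is given as the antibody target. The lists were read as ChIP calls, and every value depends on that reading.

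Segment polarity genes set up the repeated pattern of cell rows within each body segment of the embryo. Cells at the front of each parasegment express the homeodomain factors Engrailed and Invected and send Hedgehog to their neighbours, which answer through the transcription factor Ci and send Wingless back. Wingless keeps Armadillo from being degraded, so that it can act with the DNA-binding factor Pangolin on target genes, among them the pathway's own inhibitor Naked cuticle.

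Calls came from 3 kinds of deposited list: 30000 calls in each replicate, 30000 in a pooled list of the 4 replicates together, and an optimal list of 5211 peaks. These peaks match the first 5211 ranks of the pooled list in position and signal. The depth of the libraries is unknown, since the lists hold no read counts. A −log10 q of more than 2 was given to 6697 calls of replicate 1, 4575 of replicate 2, 10424 of replicate 3 and 5400 of replicate 4. Calls are therefore compared by rank within a list, where rank 1 is the strongest signal. A replicate is said to hold a peak when 1 of its own 5211 strongest calls has its summit, the position of highest signal, inside that peak.

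CG1233-GFP was called at the promoters of nkd and ci, inside ptc and hh, and no optimal peak lay in or within 10 kb of wg, en, inv or gsb. Of the 10 genes, 2 had an optimal summit within 500 bp of an annotated transcription start site (TSS), where 19.9% of all protein-coding genes had one. Summits in the gene or at a TSS were found at 4 (nkd, ci, ptc and hh), against 25.1% of all genes. With 10 kb to either side included, 6 genes had a summit (also pan and arm), against 64.3% of all genes. These counts lie near or below the shares of all genes for the promoter and the flanks, and above it for the gene itself, where gene length was not matched. With flanks of 20 kb, 9 of the 10 genes had a summit, so the absence at most of wg, en, inv and gsb depends on the 10 kb limit. The share of all genes with a summit was not counted for flanks of 20 kb.

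In all, 20 optimal summits lay in the 10 genes and their flanks, 1 of them in the flanks of both ci and pan, which are neighbours. They amounted to 0.537 summits per 10 kb, against 0.389 per 10 kb over all arms. Only 2 were at a TSS of a segment polarity gene, and 6 were inside one. Another 9 were at a TSS of, or inside, a different protein-coding gene, and 3 were in neither kind of place. By position, 11 were in introns, 6 at promoters of any gene, 2 in exons of noncoding RNA genes and 1 was intergenic. Among all optimal summits, 36.9% were intronic and 46.5% at promoters. The median rank of the 20 was 2635, close to 2606 for the whole list, and the range was 749 to 5033.

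**Figure D1:**
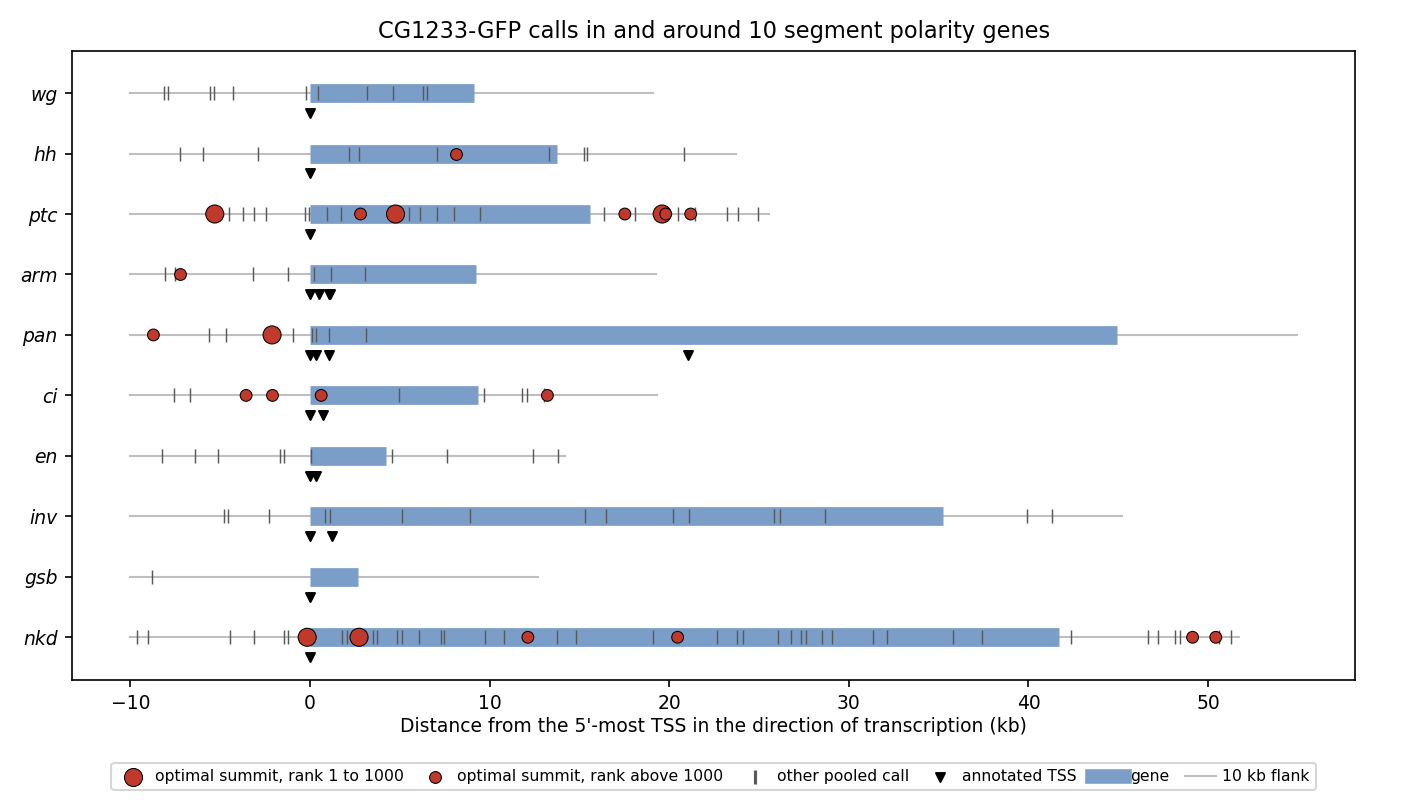
Calls in and around the 10 genes, with each gene drawn from its 5′-most TSS in the direction of transcription (kb on the horizontal axis). Red circles are the 20 optimal summits, larger for ranks up to 1000, grey ticks are other pooled calls, black triangles are annotated TSSs, blue bars are genes and grey lines are flanks of 10 kb; circles stand at ptc (7), nkd (6), ci (4), pan (2), hh (1) and arm (1), 1 circle being shared by ci and pan, and none at wg, en, inv or gsb.

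Each replicate gave the genes a similar number of strong calls, but not the same promoters. The strongest 5211 calls of replicates 1 to 4 put 23, 21, 22 and 20 summits in the genes and flanks (mean 21.5 ± 1.29, SD, n = 4). Promoter calls among them were at 3, 1, 4 and 2 of the 10 genes in replicates 1 to 4 (mean 2.5 ± 1.29, SD, n = 4). The shares of all protein-coding genes were nearly level across the same lists, at 19.7%, 19.2%, 20.2% and 19.8%. The nkd promoter was called in all 4 replicates, that of ci in replicates 1, 3 and 4, that of pan in replicates 1 and 3 and that of ptc in replicate 3. The other 6 genes had no promoter call among these. Of the 20 optimal summits, 12 (60%, 95% exact Clopper-Pearson interval 36.1 to 80.9%) were held by all 4 replicates, against 48.2% of all optimal peaks. The interval covers counting error only and takes the 20 summits as independent, although some overlap or lie in the same gene.

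**Figure D2:**
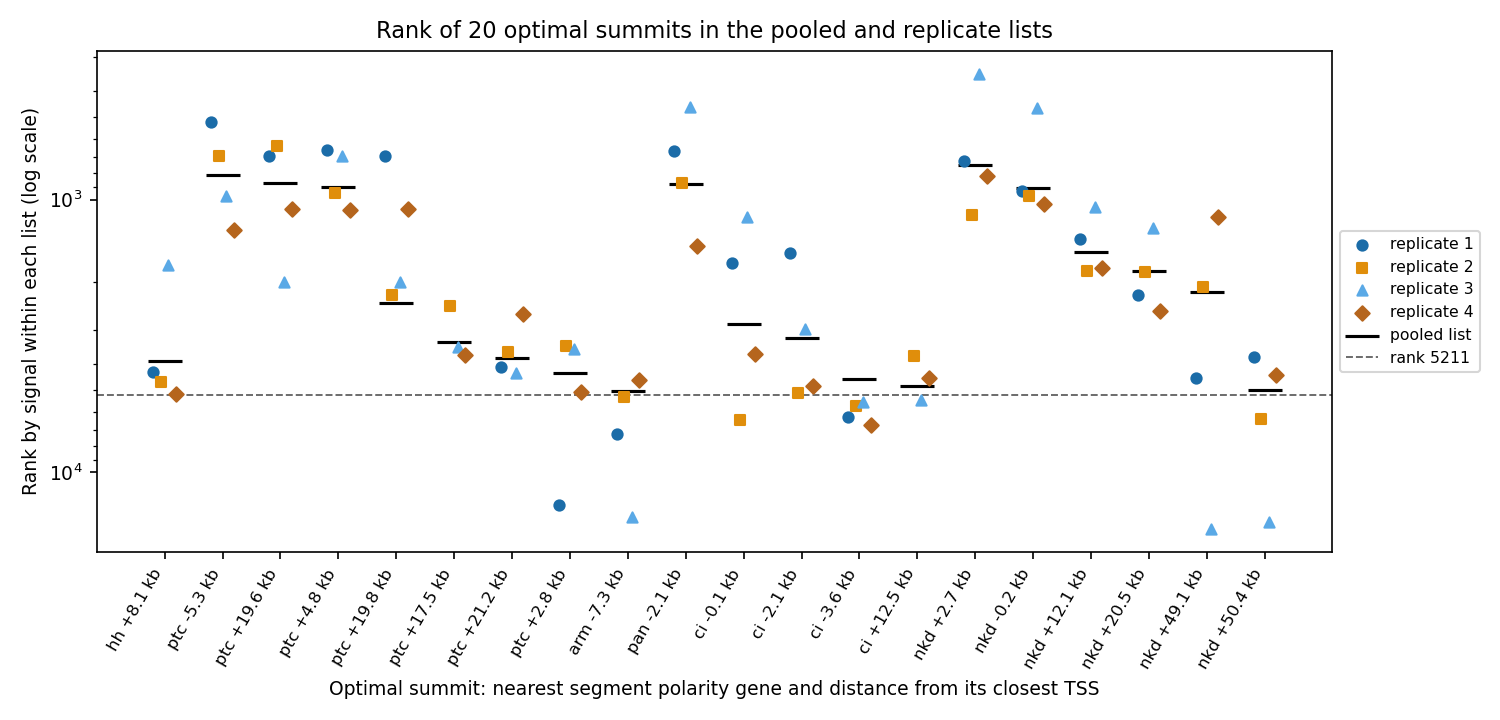
Rank of each of the 20 optimal summits in the pooled list (black bars) and in the 4 replicate lists (coloured symbols), on a reversed log axis with strong calls at the top. Summits are named by the nearest segment polarity gene and the distance in kb from its closest TSS, the dashed line marks rank 5211, and a replicate without a call inside the peak has no symbol; the summits of ptc at -5.3 kb, pan at -2.1 kb and nkd at 2.7 and -0.2 kb are among those above the line in every replicate.

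The 2 ligand genes differed, with a summit in an intron of hh and weak calls alone at wg. The gene wg (FBgn0284084, 2L:7307159-7316265, plus strand) encodes the secreted Wnt protein Wingless. It had 11 pooled calls in the gene and its flanks, the strongest at rank 12134, which is 8145 bp upstream of the TSS. Within 500 bp of its TSS the strongest call ranked 10772, 11305, 7528 and 9856 in replicates 1 to 4. No replicate placed a call there among its 5211 strongest. The call of replicate 4 lay downstream of the TSS and the others upstream.

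The gene hh (FBgn0004644, 3R:23128169-23141906, minus strand) encodes the secreted signal Hedgehog. Its optimal summit was at position 23133794, in an intron 8112 bp downstream of the TSS, with rank 3907. It ranked 4284, 4684, 1743 and 5175 in replicates 1 to 4, so all 4 held it, replicate 4 by a narrow margin. A second intron call 7041 bp from the TSS, outside the optimal list at rank 7557, ranked 3960 and 3296 in replicates 1 and 3 but 17662 and 21285 in replicates 2 and 4. At the hh TSS itself the pooled list had no call, and replicate 2 alone had one, at rank 25577. The 201 bases around the optimal summit are shown because no other optimal summit lay within wg or hh. They are on the strand of hh (dm6, chr3R:23133694-23133894, minus strand, RefSeq Release 6), with capitals for the word GCCAT, the core of sites of the Polycomb group protein Pho.
hh intron summit: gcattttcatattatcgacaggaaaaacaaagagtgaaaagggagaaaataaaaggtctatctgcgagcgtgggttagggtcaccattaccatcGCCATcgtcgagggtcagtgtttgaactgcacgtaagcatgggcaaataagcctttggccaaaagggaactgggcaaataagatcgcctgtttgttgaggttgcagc
The word lies just before the summit on this strand. It was in 27.0% of all optimal windows of this length, so a match there is common.

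With flanks counted, the Hedgehog receptor gene ptc had the most optimal summits of the 10 genes, none of them at its TSS. Of these, 4 were in the neighbouring gene Acsl and 2 were inside ptc, against 3 inside nkd. Patched, the product of ptc, holds the pathway off until Hedgehog binds it. The gene (FBgn0003892, 2R:8649649-8665223, plus strand) had 7 optimal summits in its body and flanks, or 1.97 per 10 kb, and 27 pooled calls. The strongest lay 5305 bp upstream of the TSS, at 8644344 in intergenic sequence. It had rank 814 in the pooled list and 520, 692, 968 and 1292 in replicates 1 to 4. The next inside the gene was in an intron 4758 bp downstream of the TSS, at 8654407, with rank 901 and replicate ranks of 658, 948, 691 and 1095. Both were held by every replicate.

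A weaker ptc intron summit, 2810 bp from the TSS, had rank 4338. It ranked 3443, 3522 and 5089 in replicates 2, 3 and 4 and 13154 in replicate 1, which did not hold it. The remaining 4 summits were in the neighbouring Acsl, an acyl-CoA synthetase gene downstream of ptc. They had ranks 867, 2401, 3341 and 3809, and the last was 117 bp downstream of an Acsl TSS. The first 2 are overlapping peaks with summits 8669252 and 8669451, and in replicates 1, 3 and 4 a single call served both. Whether any of these summits acts on ptc or on Acsl cannot be read from positions. At the ptc TSS the strongest call ranked 6630 in the pooled list and 5531, 5599, 1798 and 5644 in replicates 1 to 4. Replicate 3 placed it among its strongest calls, and the other 3 replicates fell just short.

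The Wingless effector genes arm and pan had no optimal summit in the gene or at a TSS. The gene arm (FBgn0000117, X:1891401-1900646, minus strand) encodes Armadillo, the fly beta-catenin. Its 1 nearby optimal summit, at 1907908, was 71 bp inside Edem1, within 500 bp of the TSSs of both Edem1 and mip130 and 7262 bp upstream of arm. It ranked 5033, near the end of the list, and was held by replicate 4 alone (rank 4609; 7269, 5304 and 14648 in replicates 1 to 3). Near the arm TSSs the strongest call ranked 7765 in the pooled list and 9067, 7308, 6661 and 10405 in replicates 1 to 4. No replicate placed a call there among its strongest. The call of replicate 1 lay near a different TSS of arm from the others.

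The gene pan (FBgn0085432, 4:69326-114270, plus strand) encodes Pangolin, the TCF-type DNA-binding partner of Armadillo. Its strongest promoter call fell just outside the optimal list, at rank 5355, with its summit 6 bp upstream of the TSS at 70405. The strongest call within 500 bp of any pan TSS ranked 2279 and 1274 in replicates 1 and 3, but 17663 and 8139 in replicates 2 and 4. These calls lay near different TSSs of pan. Inside the peak of rank 5355 alone, the ranks were 2279, 23406, 2611 and 8139 in replicates 1 to 4. The replicates thus split into the same high pair and low pair by either reading. No label separates these pairs, and what sets them apart was not tested. The strong optimal summit of rank 875 in the pan flank, at 67209, lay 2 bp upstream of the TSS of the ribosomal protein gene RpS3A. It ranked 662, 868, 458 and 1482 in replicates 1 to 4 and was held by all 4. The long body of pan, 44945 bp, held a single pooled call apart from those at its TSSs, at rank 25940.

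The gene ci (FBgn0004859, 4:47710-57041, minus strand) encodes Cubitus interruptus, the zinc finger factor that Hedgehog signalling turns from a repressor into an activator. It has 2 annotated TSSs, and its promoter summit at 56422 was 91 bp upstream of the inner one, at 56331. The same summit was 75 bp upstream of the antisense RNA gene asRNA:CR43957, which runs the other way, so the peak cannot be assigned to 1 of the pair. It had rank 2869 in the pooled list and 1702, 6453, 1154 and 3684 in replicates 1 to 4. Replicate 2 did not hold it, and as at pan replicates 1 and 3 ranked it higher than replicates 2 and 4. Near the outer TSS, at 57041, only replicate 4 had a call, at rank 8017. The bases around the promoter summit are shown because it is 1 of the 2 promoter sites of the genes (dm6, chr4:56322-56522, minus strand, RefSeq Release 6), with GCCAT and the GAGA element word GAGAG in capitals on either strand.
ci promoter summit: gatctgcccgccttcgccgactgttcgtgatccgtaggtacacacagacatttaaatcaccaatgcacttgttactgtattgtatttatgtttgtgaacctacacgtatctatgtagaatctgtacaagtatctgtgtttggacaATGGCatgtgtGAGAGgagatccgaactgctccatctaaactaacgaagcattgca
The GC content of this window was 42.8%, above the median of 35.3% over all optimal windows.

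Upstream of ci, 2 more optimal summits lay 2093 and 3562 bp from its outer TSS, in an intron and an exon of asRNA:CR43957. The nearer one, of rank 3213, ranked 1574, 5112, 2976 and 4819 in replicates 1 to 4 and was held by all 4. The farther one, of rank 4533, ranked 6252, 5705, 5536 and 6735 and was held by none, although it was in the optimal list. A summit in the downstream flank at 43827, of rank 4818, was 49 bp upstream of PlexB, a plexin receptor gene, and replicate 1 had no call there. The ci and pan window with flanks, from 37710 to 124270, makes up 6.42% of arm 4 and held 5 of its 19 optimal summits (26.3%) and 17 of its 158 pooled calls (10.8%). On this small arm, counts are too few to compare further.

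The feedback inhibitor gene nkd had the summit of best rank among the 20 and, of the 2 promoter peaks, the one that every replicate held. Naked cuticle, its product, is induced by Wingless and dampens the signal by binding Dishevelled. The gene (FBgn0002945, 3L:19003741-19045449, minus strand) has 1 TSS and had 6 optimal summits and 46 pooled calls in its body and flanks. The promoter summit at 19045611 was 162 bp upstream of the TSS, in a narrow peak of 197 bp. It had rank 907 in the pooled list and 930, 974, 460 and 1035 in replicates 1 to 4. The strongest summit was in an intron 2727 bp downstream, at 19042722, with rank 749 and replicate ranks of 724, 1141, 345 and 817. Both were highest in replicate 3 and close together in the other 3 replicates. The bases around these 2 summits are shown as the promoter site and the strongest site of nkd (dm6, chr3L:19045511-19045711 and chr3L:19042622-19042822, minus strand, RefSeq Release 6), with capitals for TATAAA and GAGAG on either strand.
nkd promoter summit: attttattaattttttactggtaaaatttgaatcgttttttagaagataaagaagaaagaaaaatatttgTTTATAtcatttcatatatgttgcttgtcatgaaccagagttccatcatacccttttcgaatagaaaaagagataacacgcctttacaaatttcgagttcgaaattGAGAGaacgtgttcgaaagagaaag
nkd intron summit: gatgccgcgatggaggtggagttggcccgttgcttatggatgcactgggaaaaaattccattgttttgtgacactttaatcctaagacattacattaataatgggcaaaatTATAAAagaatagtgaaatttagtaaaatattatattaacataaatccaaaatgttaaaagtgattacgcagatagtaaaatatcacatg
Both windows are AT-rich, with a GC content of 28.4% and 31.8%, and both hold TATAAA, as 35.0% of all optimal windows do.

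Further into nkd, summits lay 12127 and 20465 bp downstream of the TSS. The first, at 19033322, had rank 1562 and replicate ranks of 1390, 1821, 1069 and 1780, and fell in an exon of lncRNA:CR45940, a noncoding gene inside nkd. The second, at 19024984, had rank 1826 and replicate ranks of 2234, 1846, 1271 and 2556. All 4 summits in nkd and at its promoter were thus held by every replicate. The other 2 were in CG18135, beyond the 3′ end of nkd. They ranked 2174 and 4977, and replicate 3 held neither (16172 and 15277).

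**Figure D3:**
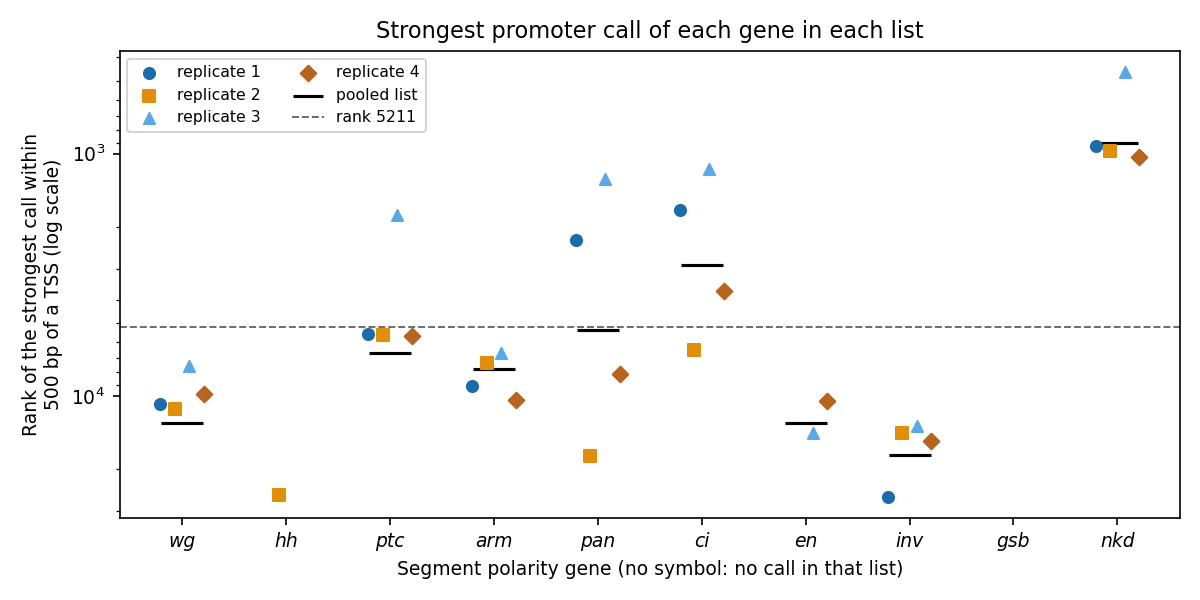
Rank of the strongest call within 500 bp of any TSS of each gene, in the pooled list (black bars) and in the 4 replicate lists (coloured symbols), on a reversed log axis with strong calls at the top and a dashed line at rank 5211. nkd lies above the line in every list, ci and pan are split by replicate, gsb has no call in any list and hh has 1 weak call, in replicate 2.

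The segment transcription factor genes en, inv and gsb were without strong calls. The homeodomain genes inv (FBgn0001269, 2R:11474465-11509695, plus strand) and en (FBgn0000577, 2R:11524006-11528210, minus strand) are neighbours, and a call between them counts for each gene whose flank of 10 kb it lies in. At en the strongest pooled call within 500 bp of a TSS ranked 12882. It was called in replicates 3 and 4 alone, at ranks 14204 and 10486. At inv the strongest such call ranked 17515 in the pooled list. The strongest there ranked 26045, 14250, 13356 and 15367 in replicates 1 to 4, the last of these at another position. The strongest call in inv, in an intron 24606 bp downstream of the nearest TSS, ranked 8043 in the pooled list and 5414 in replicate 4, just short of its 5211 strongest. It was weaker or absent in the others (9366 and 26037 in replicates 2 and 3). The Pax-type gene gsb (FBgn0001148, 2R:25061964-25064643, plus strand) had 1 pooled call within 10 kb, at rank 29272 and nearer to its neighbour gsb-n. None of the 3 genes had a call among the 5211 strongest of any list.

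The pooled list contains the optimal peaks, so its calls of any rank reach at least as many promoters. Of the 10 genes, 8 had a pooled call of any rank within 500 bp of a TSS, against 47.8% of all protein-coding genes, and hh and gsb had none. The number of TSSs per gene was not matched. The pooled list runs far down in signal: the gsb call had a −log10 q of 0.147. Of 145 pooled calls in the genes and flanks, those of nkd and ptc made up 46 and 27, or 7.45 and 7.59 per 10 kb. The average over all arms was 2.24 per 10 kb, and pan (1.39) and gsb (0.441) lay below it.

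Sequence words for the pathways' own factors were at 1 or none of the 20 summits with windows of 100 bp. These counts are too small to compare with the shares of all optimal summits. In windows of 100 bp to either side, searched on both strands, the core of TCF sites CTTTGAT was at 1 of the 20 summits (the ptc intron summit of rank 901) and at 3.32% of all optimal summits. The core TGGGTGGTC of sites bound by Ci was at none, and at 1 of all 5211. The homeodomain word TAATTA was at 1 (an Acsl summit) and at 16.4% of all. GCCAT was at 6 summits (27.0% of all), GAGAG at 4 (23.3%) and TATAAA at 7 (35.0%). The DNA replication-related element TATCGATA and Ohler motif 1, GGTCACACT, were at none of the 20 and at 2.67% and 1.32% of all. Overlapping windows of neighbouring summits can share a word. A missing word says only that these letters are not in the window.

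The promoter peaks most like that of nkd, by ranks over the 4 replicate lists, were those of Reck, RpL9 and Unr. Likeness was the sum of absolute differences in log10 rank over the 4 lists, among 2323 protein-coding genes whose peak was called in all 4. It was 0.0847 for Reck (ranks 1006, 964, 421 and 1017), 0.104 for RpL9 and 0.213 for Unr. For ci the closest were kel (0.273; ranks 1747, 5210, 1568 and 3995), CaMKI (0.293) and CycT (0.324).

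Among 64 genes of the wider pathways, all matched, promoter peaks were at 17 (26.6%), and without the 10 genes above at 15 of 54 (27.8%), against 19.9% of all genes. No test was made of this difference. These 12 lists overlap, slmb and gro for example standing in more than 1. In the list for the destruction complex, which degrades Armadillo, 5 of 7 genes had one. The strongest was gish, at rank 51 with ranks of 58, 57, 47 and 52 in replicates 1 to 4. It encodes a membrane-bound casein kinase that acts on the co-receptor Arrow and is no part of the complex, and without it the list has 4 of 6. The GSK3 kinase gene sgg followed at rank 411 (283, 519, 348 and 552), then Apc2 (2574, shared with mRpS24), the ubiquitin ligase gene slmb (3332, shared with CG5793) and Apc (4198). Among nuclear effectors 3 of 7 had a peak, led by the corepressor gene gro at rank 332 (337, 312, 1005 and 284), with hyx (4754) and the coactivator gene nej (4760) near the end of the list.

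Of 5 genes for glypicans and for enzymes that build their heparan sulfate chains, 3 had a promoter peak. These were the exostosin genes sotv (rank 1488) and ttv (3797) and the glypican gene dlp (1959, shared with RecQ5). Of 10 genes for Wnt ligands and their secretion, wls (3074, shared with Adck5) and Wnt6 (4239) had one. Of 6 receptor genes only arr, the LRP-type co-receptor, had one (1936). On the Hedgehog side, promoter peaks were at none of 4 ligand release genes and none of 4 receptor genes. Of 9 transduction genes, slmb and rdx, an adaptor that sends Ci to degradation, had one. The rdx promoter peak of rank 484 was called in replicates 3 and 4 (781 and 501) and had no call inside it in replicates 1 and 2. Of 5 feedback and target genes nkd alone had one, and of 5 genes for Engrailed and its partners gro alone. None of 6 other segment polarity transcription factor genes had one. Of the 17 promoter peaks, 6 were held by all 4 replicates (gish, gro, sgg, nkd, sotv and dlp), against 48.2% of all optimal peaks.

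**Figure D4:**
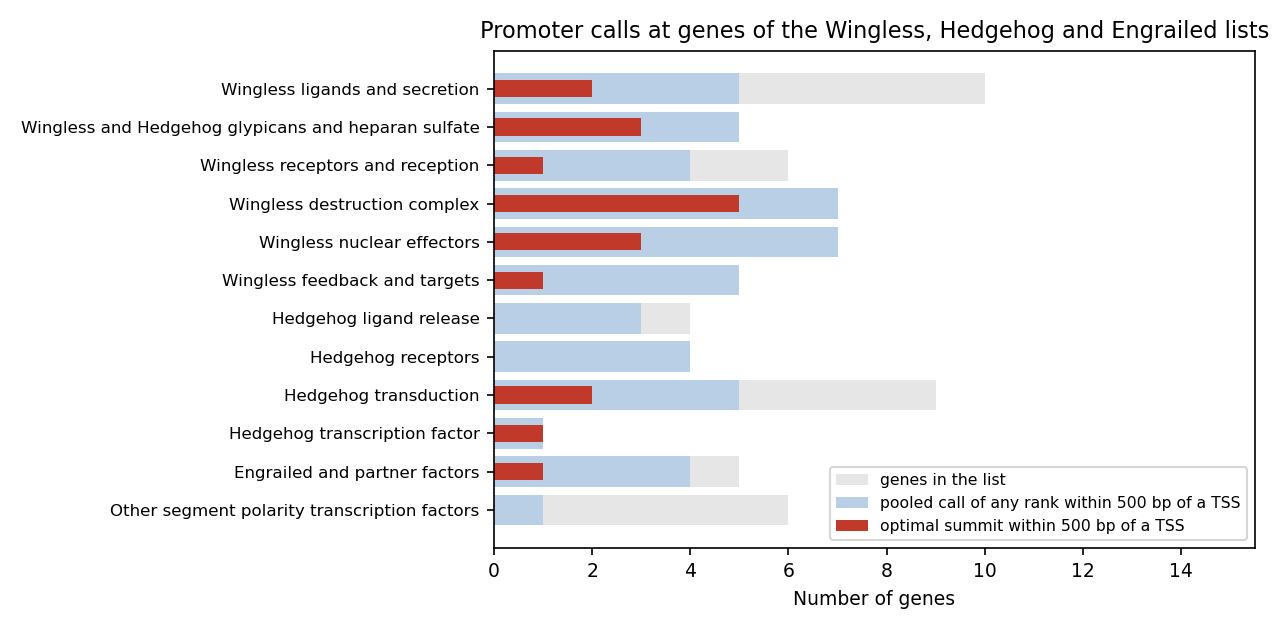
Number of genes in each of 12 lists of pathway genes (grey), those with a pooled call of any rank within 500 bp of a TSS (light blue) and those with an optimal summit there (red). The destruction complex list has the most genes with an optimal promoter summit, 5 of 7 with gish counted, and the Hedgehog ligand release, Hedgehog receptor and other segment polarity factor lists have none.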

How the data were processed

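The deposited peak lists (dm6, as stated in text files the authors supplied for each sample) were made by the authors from sonicated chromatin with fragments of 200 to 800 bp: 1 list per replicate, each called against a shared control, 1 pooled list, and an optimal list from an irreproducible discovery rate step. The caller and aligner are not given in the sources used here. The deposited signal is the caller's own score for a call, and its scale is not shared between lists, so it was used only to rank calls within a list. The deposited −log10 q column served as a filter in alternatives. Summits were compared with the Ensembl 115 annotation of the same assembly, and no call ran past the end of its arm. Annotated transposable elements and sequences outside the 6 arms were left out. Sequences are from RefSeq Release 6. Counts were made in Python 3.11.15 with pandas 2.3.3 and checked on simulated data. Genes, lists and words were chosen with earlier results of these data known. Named genes are the 10 genes, listed genes with an optimal promoter summit, genes with a TSS within 500 bp of a summit shown, and the 3 promoters closest in rank to nkd and ci. CG18135, gsb-n and the noncoding genes were named after their values were seen. Alternatives were other windows and flanks, stricter lists and each replicate left out. The replicates are biological per the labels, with no tie to separate collections given.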

Additional observations from a re-analysis of the deposited data

Results flagged for a closer look

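The ptc intron summit 2810 bp from the TSS had 1 replicate far from the others. It ranked 13154 in replicate 1, against 3443, 3522 and 5089 in replicates 2, 3 and 4. The number of the 10 genes with a promoter call of any rank was 7 in replicate 1 and 8 in each of the others, where a difference of 1 gene is enough to stand out because the others are equal. Of 24 sets of 4 replicate values examined, these 2 stood out, and chance alone sets apart about 1 in 20.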

How the results depend on the processing

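No groups were compared, and No paired analysis was possible because the 4 replicates form 1 group. Of 74 alternatives, 51 left a count or share within 1.5 times, or within the error, of the value reported, and 23 moved it. The 2 genes with a promoter summit became 1 (nkd) with the 5′-most TSS alone, within the strongest 2605 optimal peaks and when all 4 replicates had to hold the peak, and 1 to 2 with each replicate left out, ci being lost without replicates 1, 3 or 4. In that scheme a peak must be held by all of the other 3, which lowers counts by construction. The strongest 2605 peaks gave 2 genes with a summit in the gene or at a TSS and 3 within 10 kb. Flanks of 5 and 20 kb gave 5 and 9 genes with a summit, and 15 and 30 distinct summits. The 20 summits became 10 among the strongest 2605, 12 with peaks held by all 4 and 12 to 14 with each replicate left out. They were 11 without those at or in another protein-coding gene, an alternative chosen after seeing the data. The share held by all 4 rose from 60% to 90% when calls of any rank counted. The 17 promoter genes of the wider lists became 6 with peaks held by all 4, and 6 to 9 with each replicate left out. With windows of 50 bp, GAGAG was at 0 summits (10.1% of all optimal summits) and TATAAA at 4 (20.1%). With 150 bp TAATTA was at 4 (22.7% of all). Ranks carry no depth, so a missing call may reflect fewer reads, which was not tested.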

Other observations

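Among the wider pathway genes, 7 had at least 4 optimal summits inside the gene, a set chosen after the values were seen. The share of all protein-coding genes with as many was not counted, and gene length was not matched. The 7 genes are 29590 to 132008 bp long. They had from 0.530 (fz2) to 1.69 (arr) summits per 10 kb, where the average over all arms was 0.389. Because the genes were picked for their number of summits, values above that average follow in part from the choice. The adaptor gene rdx (3R:13967061-14032057) had 10 in 64997 bp, of which 5 were held by all 4 replicates, and its strongest had rank 456 (754, 435, 755 and 422 in replicates 1 to 4). The Wingless receptor gene fz (3L:14274343-14368639) had 8, with 4 held by all, and its strongest, at 14304060, had rank 274 (257, 341, 194 and 323). Its relative fz2 had 5, with none held by all and a strongest rank of 2824. The homeodomain cofactor gene hth had 8 in 132008 bp, with 1 held by all. The co-receptor gene arr had 5 and the glypican gene dlp 4, and all 4 in dlp were held by every replicate. The exostosin gene ttv had 4, with 1 held by all.

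Of the 64 wider pathway genes, 28 (43.75%) had a summit in the gene or at a TSS, where 25.1% of all protein-coding genes did. Gene length was not matched in this comparison.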
